A study of Mus musculus with 4 samples.

Results

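Edn2, Fgf2 and Zbtb7c, 3 genes chosen for their levels in rods of lesioned eyes, and Edn1, Edn3, Ednrb and Fgfr1, their sister ligands and receptors, were followed across the cells of the laser-burned mouse eye. These 7 genes were picked from the 24783 genes of the count matrix because of their measured levels in rods or as ligands and receptors of the same pathways, so their levels and ratios below are descriptions. The data are 10x Chromium single-cell RNA profiles of wild-type eyes (retina mixed with choroid and sclera), as 4 libraries, 1 for each group. The groups were aged CNV (mice over 18 months old, day 3 after laser, which makes new choroidal vessels grow, hence CNV for choroidal neovascularisation), aged control (over 18 months old, no laser), young CNV (6 to 8 weeks old, day 3 after laser) and young control (6 to 8 weeks old, no laser). The laser had a wavelength of 532 nm, a power of 200 mW, a pulse of 0.150 s and a spot of 100 µm. The series was designed around natural killer cells and neutrophils in this lesion model. Rods were depleted from the retinal suspension with an antibody against CD73 before it was mixed with the choroid-sclera suspension, so the rods described here are those left after depletion. How many mice or eyes went into a library is not given in the sources used here.

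Endothelins are short secreted peptides that are cut from longer precursors by converting enzymes and act on the G protein-coupled receptors Ednra and Ednrb. In the mouse retina, photoreceptors switch on Edn2 when they are damaged or degenerate, and Müller glia, the radial glia that span the retina, carry Ednrb. Fgf2 (basic fibroblast growth factor) is a survival factor for photoreceptors that binds heparan sulphate and signals through receptor tyrosine kinases such as Fgfr1. Zbtb7c encodes a nuclear protein with a BTB domain and zinc fingers, of the same family as Zbtb7a and Zbtb7b.

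In the mouse genome build GRCm38 (mm10), with GENCODE M21 gene models, Edn2 lies on the plus strand at chr4:120161206-120167360, Edn1 at chr13:42301476-42307990 and Edn3 at chr2:174760619-174784042, both also on the plus strand. Ednrb lies on the minus strand at chr14:103814625-103844402. Fgf2 lies on the plus strand at chr3:37348346-37410108. It overlaps Fgf2os, Nudt6 and Gm42923 on the opposite strand and Gm43439 on the same strand. Fgfr1 lies at chr8:25513654-25575718 on the plus strand. The 250 bases before the start of Edn2, the gene whose level in rods differed most between young CNV and young control among the 4 ligands here, are given from RefSeq for GRCm38.p6 (chr4:120160956-120161205, plus strand, all in lower case because none of the motifs searched was found).
Edn2 promoter: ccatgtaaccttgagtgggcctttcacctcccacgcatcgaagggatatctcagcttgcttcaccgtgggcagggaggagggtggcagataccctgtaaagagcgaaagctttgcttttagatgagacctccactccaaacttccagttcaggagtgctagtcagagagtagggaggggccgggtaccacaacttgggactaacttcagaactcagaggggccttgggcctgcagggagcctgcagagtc
Motifs for factors of photoreceptors, injury and low oxygen were searched on both strands in windows of this length: TGANTCA (AP-1), TTCNNNGAA (STAT), TAATCC (CRX) and ACGTG (HIF-1). They occurred in 6.75%, 7.02%, 6.25% and 16.6% of 32851 promoters. The promoter windows of Edn1, Edn3 and Fgf2 held none of them either, and that of Ednrb held 1 CRX match. By the gene models above, the windows of Fgf2 (chr3:37348403-37348652) and Ednrb (chr14:103843702-103843951) lie inside these genes, not before their start. The absence of a match says only that these letters are not in this window.

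The libraries held 7731 cells in aged CNV, 6676 in aged control, 10867 in young CNV and 11427 in young control, with 50848238 to 111908519 UMIs (unique molecular identifiers, counted transcripts) per library. Median UMIs per cell were 6875 in aged CNV, 6428 in aged control, 7223 in young CNV and 2593 in young control. Any 2 libraries shared 14 to 29 cell barcodes, at most 0.359% of the smaller one. Cells were clustered without the 7 genes and clusters were named from marker genes, which is why classes are called X-like. Rod-like cells numbered 753 in aged CNV, 1217 in aged control, 2814 in young CNV and 5844 in young control, and each of 10 rod markers in each library was at least 2-fold above its median over the other classes. Levels are the UMIs of a gene summed over the cells of a class, divided by all UMIs of these cells and multiplied by 1000000 (CPM), and a fold is a ratio of CPM. With 1 library per group there were no replicates and no test. Intervals in parentheses are exact 95% intervals that cover counting error only, not differences between animals or preparations.

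Rod-like cells of both lesioned eyes carried more Edn2, Fgf2 and Zbtb7c than those of the matching unlesioned eyes, and the young control library was lowest for each of them. Edn2 stood at 73.5 CPM (62.6 to 85.7) in aged CNV, 21.4 CPM (17.2 to 26.3) in aged control, 88.0 CPM (80.7 to 95.7) in young CNV and 3.41 CPM (2.36 to 4.77) in young control, from 161 UMIs in aged CNV, 90 in aged control, 541 in young CNV and 34 in young control. Both CNV libraries were above both controls, and the aged control was above the young one. The fold of CNV over control was 3.43 (2.63 to 4.49) in aged and 25.8 (18.2 to 37.6) in young mice, and the 2 CNV libraries differed by less, at 0.835 (0.696 to 0.998) aged over young. Fgf2 stood at 293.8 CPM (271.6 to 317.4) in aged CNV, 81.7 CPM (73.3 to 90.8) in aged control, 130.9 CPM (122.0 to 140.2) in young CNV and 26.7 CPM (23.6 to 30.1) in young control. Here aged CNV was highest and the intervals of the 4 libraries did not overlap. The CNV over control fold of Fgf2 was 3.598 (3.15 to 4.11) in aged and 4.91 (4.27 to 5.66) in young mice. Zbtb7c stood at 156.0 CPM (139.9 to 173.5) in aged CNV, 28.6 CPM (23.7 to 34.2) in aged control, 68.1 CPM (61.8 to 75.0) in young CNV and 2.41 CPM (1.54 to 3.58) in young control, in the same order as Fgf2. The fold of Zbtb7c was 5.46 (4.42 to 6.78) in aged and 28.3 (18.8 to 44.7) in young mice, from 24 UMIs in young control, and with rods picked cell by cell by their own markers the young log2 ratio was 2.95 in place of 4.82. Without 1 rod cluster that held most aged control rods, described below, the aged log2 ratios were 2.89 for Edn2, 2.69 for Fgf2 and 4.16 for Zbtb7c, in place of 1.78, 1.85 and 2.45.

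**Figure D1:**
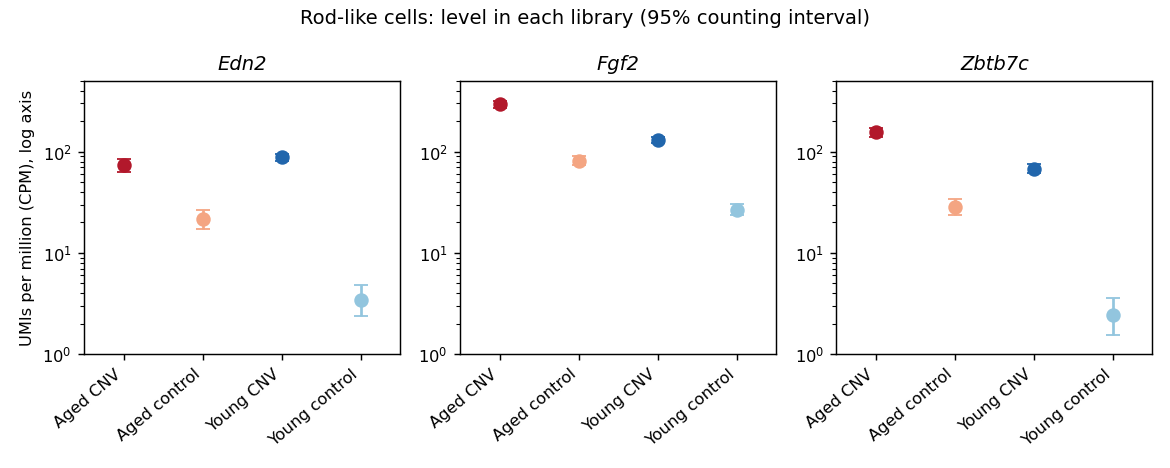
Level of Edn2, Fgf2 and Zbtb7c in rod-like cells of each library, in CPM on a log axis, with exact 95% Poisson intervals (counting error only). For each gene the CNV library lies above the control library of its age and young control is lowest.

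Among all genes with at least 20 UMIs over the 2 libraries, 6.26% of 11798 were at least 2-fold higher in aged CNV than in aged control rods and 7.24% of 13856 were at least 2-fold higher in young CNV than in young control rods. Of the 7 genes, 5 reached 20 UMIs in the aged comparison and 5 of these were at least 2-fold higher, and 6 reached it in the young comparison, of which 5 were. Edn2, Fgf2 and Zbtb7c were chosen for their levels in rods of lesioned eyes, so these counts and the ranks that follow are only descriptions. Ednrb and Fgfr1, also counted here, rested on few UMIs. With rods picked by their own markers, Fgfr1 at both ages and Ednrb in young mice went the other way, as given below. Ordered by the interval bound nearest to no difference, Zbtb7c was 4th and Edn2 was 5th of 13856 genes in the young comparison and Fgf2 was 69th. In the aged comparison Zbtb7c was 43rd, Fgf2 was 81st and Edn2 was 105th of 11798. The genes ahead of Zbtb7c and Edn2 in young rods were Myog, a muscle regulator, at 18.5 CPM in young CNV against 0 UMIs in young control (at least 61.6-fold higher, with 3 UMIs set in the empty library), Spp1, the secreted phosphoprotein osteopontin that macrophages make in quantity, at 390.5 CPM in young CNV against 11.4 CPM in young control, and Bcl3, a nuclear partner of NF-kappaB, at 31.9 CPM in young CNV against 0.702 CPM in young control. The next were Kctd8, Tnnt1, Ifit3, Lyz1 and Kcng4. The aged comparison was led by Cfd, Dtx3l, Ifit3, Oasl2, Tap1, Krt15, Ifih1, Cxcl13, Crym and Krt14, among them interferon-induced genes (Ifit3, Oasl2, Ifih1) and keratins of surface epithelium (Krt14, Krt15).

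RNA of other cell types differed between the rod profiles as well. Summed over 12 macrophage markers, rods held 358.6 CPM in aged CNV, 196.7 CPM in aged control, 825.6 CPM in young CNV and 205.8 CPM in young control, with at most 1 of the 12 at 0. The 11 Müller glia markers summed to 553.9 CPM in aged CNV, 475.2 CPM in aged control, 1217 CPM in young CNV and 572.6 CPM in young control, none at 0. The 10 cone markers summed to 934.9 CPM in aged CNV, 534.3 CPM in aged control, 687.4 CPM in young CNV and 187.5 CPM in young control. The 8 epithelial markers summed to 88.97 CPM in aged CNV, 5.0 CPM in aged control, 134.3 CPM in young CNV and 153.6 CPM in young control, with 3 of them at 0 in aged control. Among the genes at least 2-fold lower in aged CNV rods were Rgr, Ttr, Rpe65 and Lrat of the retinal pigment epithelium (RPE), whose 10 markers summed to 100.8 CPM in aged CNV and 450.5 CPM in aged control. The part of this RNA in the ratios of Edn2, Fgf2 and Zbtb7c was not tested. Edn2 itself reached at most 1.06 CPM in macrophage/monocyte-like, 4.66 CPM in Müller-glia-like, 5.74 CPM in cone-like and 15.6 CPM in epithelial-like cells of any library. Fgf2 in Müller-glia-like cells was 132.7 CPM in aged CNV, 86.03 CPM in aged control, 52.95 CPM in young CNV and 41.3 CPM in young control.

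Counting cells in place of transcripts gave the same order for the controls. With each cell thinned to 1000 UMIs, Edn2 was found in 7.25% of rod-like cells in aged CNV (5.43 to 9.44, 50 of 690 cells), 1.98% in aged control (1.26 to 2.95, 23 of 1164), 6.52% in young CNV (5.59 to 7.55, 166 of 2546) and 0.378% in young control (0.216 to 0.613, 16 of 4234). Cells with fewer UMIs were left out, 63 in aged CNV, 53 in aged control, 268 in young CNV and 1610 in young control. The intervals of the 2 CNV libraries overlapped, those of the 2 controls did not, and each CNV library lay above its control. Without thinning the shares were 16.3% in aged CNV (median depth 2701 UMIs), 5.75% in aged control (3287 UMIs), 12.6% in young CNV (1943 UMIs) and 0.531% in young control (1328 UMIs). In RPE-like, fibroblast-like and endothelial-like cells, taken as classes that do not make Edn2, the thinned share was 0 to 0.0621% in the first 2 classes and 0 to 0.443% in endothelial-like cells. Their median depths were 4889 to 11934 UMIs. The share in young control rods was within the 0.673% that 0 of 446 RPE-like cells of that library allow, and its interval overlapped that of fibroblast-like cells (0.0546%, 0.00138 to 0.304), so at this depth it could not be told from background. Summed over all UMIs of young control, Edn2 was 3.41 CPM in rods, 0.0991 CPM in fibroblast-like, 0.163 CPM in endothelial-like and 0 CPM in RPE-like cells. Fgf2 was found in 20.6% of thinned rods in aged CNV, 5.76% in aged control, 9.98% in young CNV and 2.67% in young control, and Zbtb7c in 11.5% in aged CNV, 2.23% in aged control, 4.67% in young CNV and 0.189% in young control. The highest number of Edn2 UMIs in 1 rod was 5, in young CNV.

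**Figure D2:**
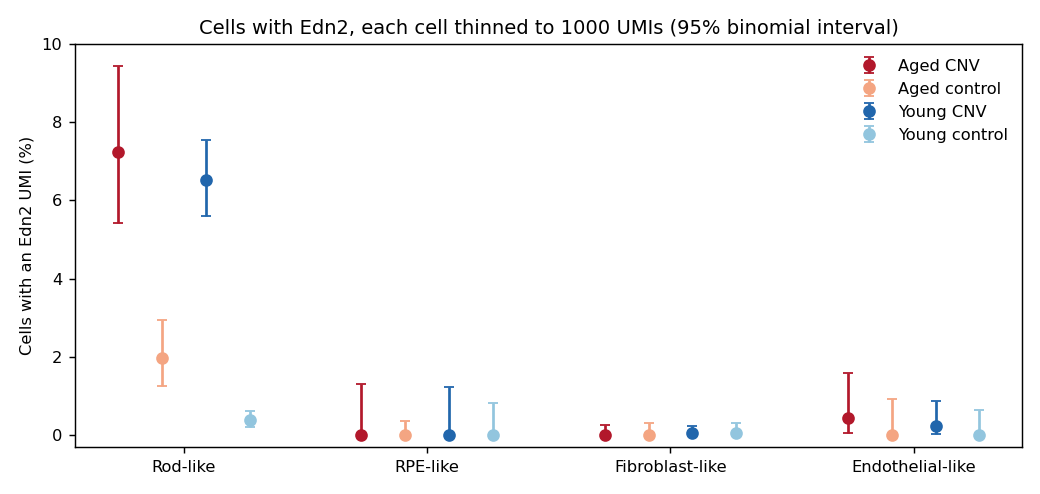
Share of cells with at least 1 Edn2 UMI after thinning each cell to 1000 UMIs, with exact 95% binomial intervals, by class and library. Rod-like cells reached 7.25% in aged CNV and 6.52% in young CNV, against 1.98% in aged control and 0.378% in young control, and no share in the other 3 classes was above 0.443%.

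The rods of the 4 libraries fell into 5 clusters of unequal make-up, of which 4 are described. A cluster led by Rp1, an axoneme protein of the outer segment, held 38.7% of rods in aged CNV, 26.2% in aged control, 26.8% in young CNV and 28.1% in young control. It was the only one with at least 50 cells in each library. Within it Edn2 stood at 77.4 CPM in aged CNV, 10.9 CPM in aged control, 138.7 CPM in young CNV and 4.17 CPM in young control. Young CNV was thus above aged CNV in this cluster, and the intervals of the controls overlapped (5.23 to 20.1 in aged and 2.38 to 6.77 in young). A cluster led by Dpp10, a potassium channel auxiliary subunit, held 45.0% of aged CNV and 59.5% of aged control rods but 0.213% of young CNV and 0.496% of young control rods. There Edn2 was 77.8 CPM in aged CNV and 26.3 CPM in aged control, from 95 and 79 UMIs. A cluster led by Pdc, which binds transducin subunits, held 52.2% of young CNV and 26.9% of young control rods, with Edn2 at 69.98 CPM in young CNV and 2.90 CPM in young control. A further cluster, led by 4930419G24Rik, held 43.9% of young control rods, where Edn2 was 1.86 CPM.

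**Figure D3:**
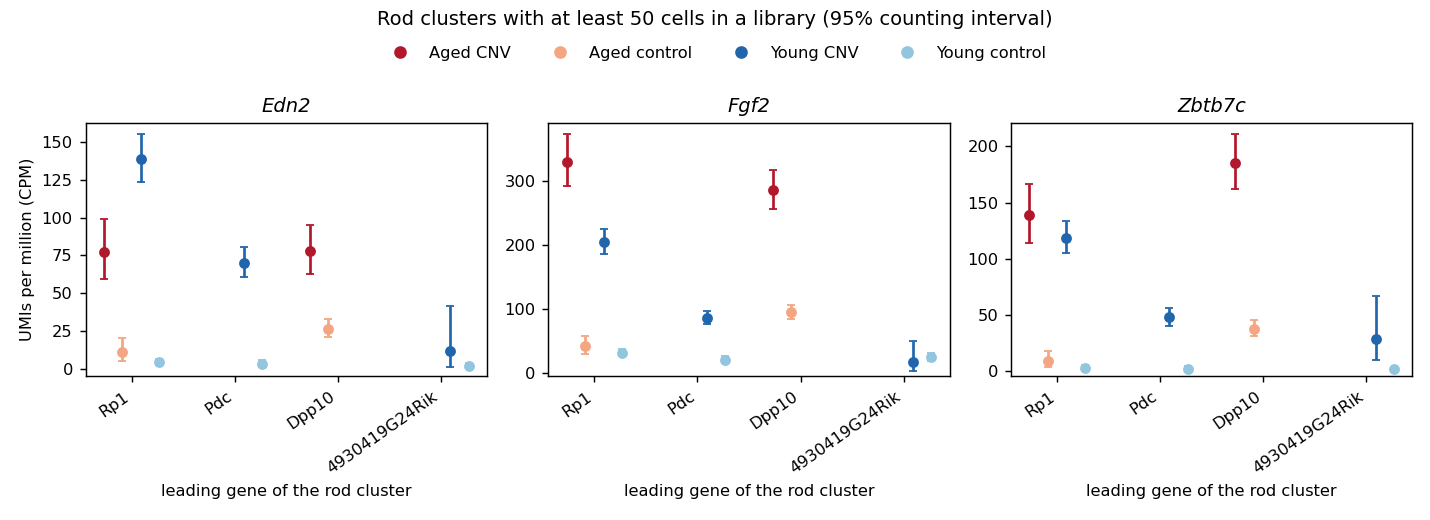
Level of Edn2, Fgf2 and Zbtb7c in 4 rod clusters of each library, in CPM with exact 95% Poisson intervals, for clusters with at least 50 cells in that library. In the Rp1-led cluster, the only one with at least 50 cells in each of the 4 libraries, Edn2 reached 138.7 CPM in young CNV and 77.4 CPM in aged CNV.

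The choice of rods moved both the age and the lesion ratios. Edn2 in aged control was 6.28-fold (4.19 to 9.62) that of young control over all rods, Fgf2 was 3.06-fold (2.60 to 3.61) and Zbtb7c was 11.9-fold (7.61 to 19.2), in a comparison in which 5.78% of 13436 genes were at least 2-fold higher and 10.0% at least 2-fold lower. Without the Dpp10-led cluster, which held most aged control rods, the log2 ratio of aged control over young control was 1.60 for Edn2 in place of 2.65, 0.84 for Fgf2 in place of 1.61 and 1.72 for Zbtb7c in place of 3.57. Within the Rp1-led cluster alone it was 1.39 (0.09 to 2.62) for Edn2 and 0.41 (-0.15 to 0.94) for Fgf2. Between the CNV libraries, where 8.72% of 12632 genes were at least 2-fold higher in aged CNV, Fgf2 was 2.25-fold (2.02 to 2.49) and Zbtb7c 2.29-fold (1.98 to 2.65) aged over young, while the log2 ratio of Edn2, -0.26 over all rods, was 0.27 (-0.09 to 0.61) without the Rp1-led cluster. For aged CNV over aged control, the log2 ratio without the Dpp10-led cluster was 2.89 for Edn2 in place of 1.78, 2.69 for Fgf2 in place of 1.85 and 4.16 for Zbtb7c in place of 2.45. Within the Rp1-led cluster alone it was 2.83 for Edn2, 2.96 for Fgf2 and 3.99 for Zbtb7c. The CNV over control ratios of these 3 genes were above 1 in each of these subsets of rods that gave a value, at both ages.

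Single rods with an Edn2 transcript had Fgf2 or Zbtb7c transcripts in a larger share than rods without one. After thinning, Fgf2 was found in 40.0% (26.4 to 54.8) of rods with Edn2 and 19.1% (16.1 to 22.3) of rods without it in aged CNV. In young CNV the shares were 25.9% (19.4 to 33.3) with Edn2 and 8.87% (7.75 to 10.1) without. Zbtb7c was found in 18.1% (12.5 to 24.8) of young CNV rods with Edn2 and 3.74% (3.01 to 4.58) of those without, and Bcl3 in 9.64% (5.61 to 15.2) and 1.98% (1.46 to 2.62). In aged CNV the intervals overlapped for Zbtb7c, at 10 of 50 rods with Edn2 (10.03% to 33.7%) and 10.8% (8.49 to 13.5) of those without, and for Bcl3. Gnat1, the rod transducin alpha subunit, was found in 75.3% (68.0 to 81.7) of young CNV rods with Edn2 and 87.4% (86.04 to 88.7) of those without, and in 78.0% (64.04 to 88.5) and 71.7% (68.1 to 75.2) in aged CNV. The controls had only 23 and 16 thinned rods with Edn2, in aged and young mice, and their intervals were wide. Before thinning, rods with Edn2 were the deeper ones, with a median of 3515 UMIs against 2544 in aged CNV and 2618 against 1865 in young CNV. These shares describe cells of 1 library each, which are not replicates.

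The genes whose levels followed Edn2 most closely over 54 sums of class and library (18 classes) were Fgf2os, with a Pearson r of 0.865 on log2(CPM + 5), Lrrc2 (0.834), Marveld3 (0.801), Gramd2 (0.762) and Tcp11 (0.750), out of 14894 genes. These sums share libraries and cells' depth, so the correlations are descriptions without a p-value. Fgf2os, an RNA transcribed from the strand opposite to Fgf2, stood at 119.5 CPM in aged CNV, 43.3 CPM in aged control, 68.8 CPM in young CNV and 10.0 CPM in young control rods. Nudt6, which also overlaps Fgf2 on the opposite strand and encodes a Nudix hydrolase, stood at 49.7 CPM in aged CNV, 16.9 CPM in aged control, 27.2 CPM in young CNV and 7.62 CPM in young control. For both genes the order of the libraries in rods was that of Fgf2. Whether the authors' counting used strand is not given in the sources used here, so reads of Fgf2 and of these overlapping genes cannot be told apart with certainty. Strand would not separate Fgf2 from Gm43439, which overlaps it on the same strand. In Müller-glia-like cells, where Fgf2 also stood at 41.3 to 132.7 CPM, Fgf2os was 2.22 to 10.2 CPM. The closest to Fgf2 were Klhl29 (r of 0.826), Gpm6b (0.786), Actr3b (0.774), B3galt1 (0.763) and Cc2d2a (0.759), and to Zbtb7c were Sept11 (0.712), Rock2 (0.705), Pprc1 (0.689), Aopep (0.686) and Eif4e3 (0.659). Klhl29 stood at 832.2 CPM in aged CNV, 306.9 CPM in aged control, 398.0 CPM in young CNV and 125.6 CPM in young control rods, whereas Gpm6b stood at 610.9 CPM in aged CNV, 623.8 CPM in aged control, 424.8 CPM in young CNV and 468.3 CPM in young control. The r between Edn2 and Fgf2 was 0.487 and that between Edn2 and Zbtb7c was 0.351.

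A list of 24 genes of damage responses was mostly higher in rods after laser, and in several other classes too. This list and the other gene lists below were chosen with earlier results of these data known, so their counts are descriptions. In aged mice 19 of the 24 were measured, 15 had a counting interval above 1 (18.5% of all genes had), 0 had one below (11.6% of all genes), and 12 were at least 2-fold higher. The median log2 ratio of the list was 1.37, against 0.05 over all genes. In young mice 20 were measured, 18 had an interval above 1 (21.1% of all genes), 1 had one below (23.9% of all genes) and 9 were at least 2-fold higher, with a median of 0.86 against -0.04. Other classes had counts of the same kind. In Müller-glia-like cells 20 of 24 measured genes in aged and 18 of 22 in young mice had an interval above 1. Of all genes there, 20.7% in aged and 10.8% in young mice had one. The medians of the list were 1.60 and 1.34. At least 2-fold higher were 15 of these 24 in aged (8.52% of all genes) and 13 of these 22 in young mice (3.36%). In aged bipolar-like cells 13 of 22 were (median 1.23), against 9.31% of all genes. Gfap, Socs3, Stat3, Mt1, Mt2 and Cebpd are also in the list of reactive Müller glia genes used below, so the counts of both lists overlap. In rods Bcl3 was 8.50-fold (5.37 to 14.01) higher in aged CNV and 45.4-fold (21.6 to 114.4) higher in young CNV, where young control had 7 UMIs. Socs3, which dampens cytokine signals through STAT proteins, was 22.4 CPM in aged CNV and 3.10 CPM in aged control (7.22-fold, 3.86 to 14.5). Cebpd, a transcription factor of acute-phase responses, was 137.1 CPM in young CNV and 34.2 CPM in young control (4.01-fold, 3.53 to 4.56). Stat3, which carries cytokine signals to the nucleus, was 178.8 CPM in young CNV and 56.9 CPM in young control (3.15-fold, 2.84 to 3.49). Hmox1, which breaks down haem, was 3.96-fold (2.08 to 7.90) in aged and 3.54-fold (2.31 to 5.51) in young mice. Cntf, a neurotrophic cytokine, was the 1 member with an interval below 1, at 6 UMIs in young CNV and 27 in young control (0.360-fold, 0.122 to 0.891). Of the genes listed as targets of FGF signalling in rods, Egr1 was 4.26-fold (3.49 to 5.21) in aged and 1.62-fold (1.48 to 1.77) in young mice and Fos was 2.59-fold (2.12 to 3.18) in aged and 1.53-fold (1.43 to 1.62) in young mice. Spred2, an inhibitor of Ras signalling, was 0.504-fold (0.301 to 0.814) in young mice. Of these targets, 3 of 7 measured in aged and 3 of 10 in young rods had an interval above 1, and 0 and 4 had one below.

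The receptors were scarce in rods. Ednrb stood at 6.39 CPM in aged CNV, 2.14 CPM in aged control, 6.34 CPM in young CNV and 2.71 CPM in young control, from 9 to 39 UMIs. Fgfr1 stood at 6.84 CPM in aged CNV, 2.86 CPM in aged control, 9.76 CPM in young CNV and 3.51 CPM in young control, from 12 to 60 UMIs. Their CNV over control folds were 2.98 (1.20 to 7.81) and 2.40 (1.05 to 5.61) in aged and 2.34 (1.40 to 3.98) and 2.78 (1.80 to 4.35) in young mice. With rods picked by their own markers the log2 ratio of Fgfr1 was -0.72 at both ages and that of Ednrb was -0.39 in young mice, so the direction was not stable. The receptor Fgfr2 was 482.7 CPM in aged CNV and 393.8 CPM in aged control (1.23-fold, 1.13 to 1.33), but 304.5 CPM in young CNV and 542.5 CPM in young control (0.561-fold, 0.532 to 0.592). Flrt3, a membrane protein that binds FGF receptors, was 57.5 CPM in aged CNV and 47.6 CPM in aged control (1.21-fold, 0.958 to 1.52), and 19.02 CPM in young CNV and 59.9 CPM in young control (0.318-fold, 0.258 to 0.388). Edn1 was at or below 1.83 CPM in rods of each library.

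Cone-like cells had more Fgf2 after laser too, with little Edn2. Fgf2 stood at 55.5 CPM in aged CNV, 12.1 CPM in aged control, 25.6 CPM in young CNV and 4.44 CPM in young control, a fold of 4.61 (3.495 to 6.12) in aged and 5.77 (2.61 to 14.5) in young mice. In cones 4.20% of 12584 genes were at least 2-fold higher in the aged and 2.56% of 10151 in the young comparison, and 4 of the 5 members measured in aged and 2 of the 2 in young cones were. Edn2 stood at 5.74 CPM in aged CNV, 1.61 CPM in aged control, 1.60 CPM in young CNV and 0 CPM in young control. These were 18 UMIs in aged CNV, 10 in aged control, 2 in young CNV and 0 in young control. Free rod RNA was estimated, after the data were seen, from the Gnat1 UMIs of a class and the ratio of each gene to Gnat1 in rods of the same library. On this estimate free rod RNA would give cones 1.29 CPM of Edn2 in aged CNV, 0.31 CPM in aged control, 2.94 CPM in young CNV and 0.221 CPM in young control. The counting intervals of Edn2 in aged cones lay above it (3.40 to 9.08 in aged CNV and 0.771 to 2.96 in aged control) and those in young cones held it, so Edn2 in young cones is not read as expression. The source of Edn2 in aged cones was not tested. In fibroblast-like cells, taken above as a class that does not make Edn2, the estimate was 0.533 CPM in aged CNV, 0.337 CPM in aged control, 0.466 CPM in young CNV and 0.164 CPM in young control. The counted Edn2 there was 0.771 CPM in aged CNV, 0.180 CPM in aged control, 0.806 CPM in young CNV and 0.0991 CPM in young control. Its interval held the estimate in aged CNV (0.385 to 1.38), aged control (0.0218 to 0.649) and young control (0.012 to 0.358). In young CNV the interval lay above the estimate (0.570 to 1.11), although this class was taken not to make Edn2. Zbtb7c was 9.25 CPM in aged CNV and 0.482 CPM (3 UMIs) in aged control cones, a ratio of 19.2 (5.95 to 98.5). Its log2 ratio, 4.26, was 1.82 when predicted doublets were kept and 2.21 with cones picked by their own markers. Of the 24 damage genes, 18 were measured in cones at each age. In aged cones 11 had an interval above 1 (15.5% of all genes) and 1 had one below (10.0%), and in young cones 9 had one above (6.73%) and 0 one below (5.73%). For Fgf2 in aged cones, the Gnat1 estimate of free rod RNA was 5.14 CPM in CNV and 1.18 CPM in control. In young cones it was 4.37 CPM in CNV and 1.73 CPM in control, where 8 Fgf2 UMIs were counted. Of the reactive Müller glia genes, 9 of 12 measured in aged and 6 of 9 in young cones had an interval above 1. The part of Müller glia RNA in the Fgf2 ratio of cones was not tested.

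Bipolar-like cells, the interneurons fed by photoreceptors, showed Zbtb7c after laser. It stood at 26.7 CPM in aged CNV, 1.68 CPM in aged control, 18.1 CPM in young CNV and 0 CPM in young control, from 333 UMIs in aged CNV, 9 in aged control, 22 in young CNV and 0 in young control. The fold was 15.9 (8.25 to 34.96) in aged mice and at least 3.68 in young mice, with 3 UMIs set in the empty library. When cells were thinned to 1000 UMIs, 0 of 484 aged control cells kept a Zbtb7c UMI. The thinned aged log2 ratio, at least 1.85 with 3 UMIs set there, is thus only a bound beside 3.99 without thinning. With doublets kept the aged log2 ratio was 2.38. The young bipolar-like cells were few, 151 in young CNV and 87 in young control. Fgf2 was 18.2 CPM in aged CNV and 4.86 CPM in aged control (3.74-fold, 2.49 to 5.85), where the Gnat1 estimate of free rod RNA gave 3.32 CPM in aged CNV and 0.622 CPM in aged control. The 11 Müller glia markers summed to 658.6 CPM in aged CNV and 322.6 CPM in aged control bipolar-like cells, none at 0. There 15 of 16 reactive Müller glia genes were at least 2-fold higher in aged CNV (median log2 ratio of 1.85 against 0.10 over all genes). Fgf2 in Müller-glia-like cells was itself 132.7 CPM in aged CNV and 86.03 CPM in aged control. The subtypes were mixed unequally, and the largest cluster, led by Lrrtm4, held 565 of 1403 cells in aged CNV and 275 of 487 in aged control. Within it Fgf2 was 29.3 CPM in aged CNV and 6.65 CPM in aged control, and Zbtb7c was 45.3 CPM in aged CNV and 2.85 CPM in aged control. The part of Müller glia RNA in the Fgf2 ratio was not tested. Of all genes in bipolar-like cells, 9.31% of 15085 were at least 2-fold higher in the aged comparison, and 5 of the 7 members measured were. One of them, Edn3 (5.12 CPM in aged CNV and 0.374 CPM, 2 UMIs, in aged control), had a log2 ratio of -0.60 in place of 3.78 when predicted doublets were kept. Zbtb7a and Zbtb7b, the relatives of Zbtb7c, were measured too, and Zbtb7b was 10.1 CPM in aged CNV and 13.8 CPM in aged control bipolar-like cells (0.729-fold, 0.543 to 0.985). In rods the intervals of both relatives spanned 1 at both ages.

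**Figure D4:**
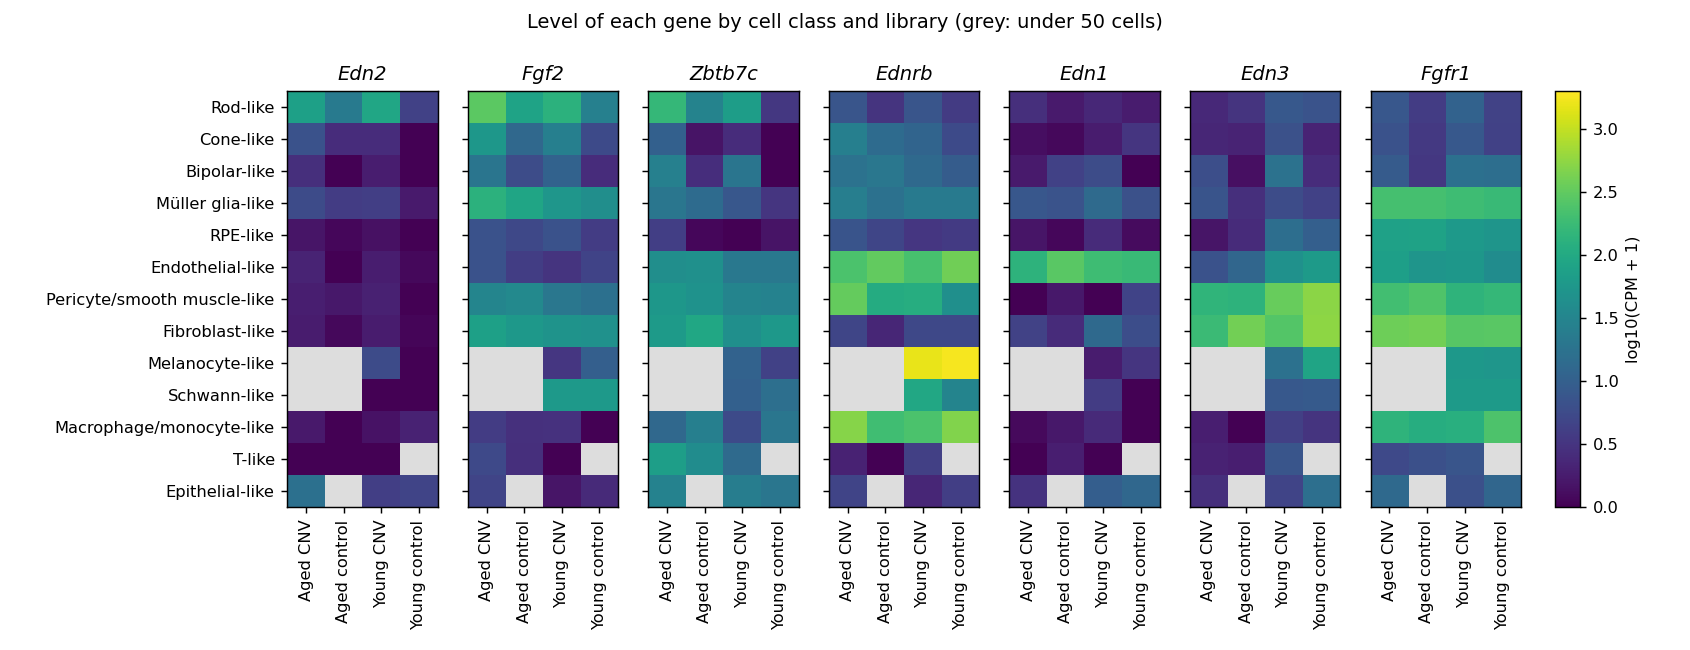
Level of the 7 genes by cell class (rows) and library (columns), as log10(CPM + 1), with grey for classes of under 50 cells in a library. Edn2 was highest in rod-like cells of each library but young control, Edn1 in endothelial-like, Edn3 in fibroblast-like or pericyte/smooth-muscle-like and Ednrb in melanocyte-like, macrophage/monocyte-like, endothelial-like and pericyte/smooth-muscle-like cells.

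Müller-glia-like cells held Ednrb in every library without a large difference after laser. Ednrb stood at 24.7 CPM in aged CNV, 16.2 CPM in aged control, 21.6 CPM in young CNV and 21.4 CPM in young control, with a fold of 1.53 (1.05 to 2.23) in aged and 1.01 (0.642 to 1.56) in young mice. Their Edn2, at 4.66 CPM in aged CNV, 2.82 CPM in aged control, 3.08 CPM in young CNV and 0.738 CPM in young control, came to 2 to 16 UMIs. Free rod RNA, estimated from Gnat1, would give 4.34 CPM in aged CNV, 1.09 CPM in aged control, 1.54 CPM in young CNV and 0.24 CPM in young control of Edn2. The interval of the counted level held this in aged CNV (2.66 to 7.56), young CNV (1.0 to 7.19) and young control (0.0894 to 2.67). In aged control it lay above (1.22 to 5.56), from 8 UMIs. Edn2 in these cells is not read as expression where the interval held the estimate, and its source in aged control was not tested. Fgf2 was 132.7 CPM in aged CNV, 86.03 CPM in aged control, 52.95 CPM in young CNV and 41.3 CPM in young control, with a fold of 1.54 (1.32 to 1.81) in aged and 1.28 (0.956 to 1.71) in young mice. Both aged libraries were above both young ones, by 2.51-fold (1.99 to 3.19) after laser and 2.08-fold (1.66 to 2.63) without. Fgfr1 was 211.9 CPM in aged CNV, 212.3 CPM in aged control, 186.6 CPM in young CNV and 170.2 CPM in young control, with laser folds of 0.998 (0.895 to 1.11) in aged and 1.10 (0.945 to 1.27) in young mice. In the glia of both lesioned eyes, where 8.52% of 13374 genes were at least 2-fold higher in aged and 3.36% of 12126 in young mice, of 16 genes of reactive Müller glia, 15 of 15 measured in aged and 13 of 16 in young mice had an interval above 1 (20.7% of all genes in aged and 10.8% in young mice). Their medians were 2.41 and 1.44 on the log2 scale against 0.01 and -0.08 over all genes. Lcn2, an iron-siderophore carrier of the acute phase, was 1812 CPM in aged CNV, 66.99 CPM in aged control, 370.1 CPM in young CNV and 7.75 CPM in young control. Timp1, an inhibitor of matrix proteases, was 44.2-fold (23.1 to 97.3) in aged and 26.0-fold (13.8 to 55.3) in young mice.

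Genes that FGF receptors switch on did not move as a group in Müller-glia-like cells. Of 13 genes, 12 were measured at each age, and 2 in aged and 3 in young mice had an interval above 1 (20.7% of all genes in aged and 10.8% in young mice). In aged mice 3 and in young mice 1 had one below (17% of all genes in aged and 15% in young mice), and the medians were -0.03 and -0.05. The higher ones were the immediate early genes Egr1 (222.1 CPM in aged CNV and 94.9 CPM in aged control, 585.0 CPM in young CNV and 434.4 CPM in young control) and Fos (193.3 CPM in aged CNV and 98.4 CPM in aged control, 1205 CPM in young CNV and 766.2 CPM in young control), and Etv5 in young mice (1.33-fold, 1.02 to 1.74). Etv1, another ETS factor, was 0.572-fold (0.492 to 0.666) in aged and 0.666-fold (0.523 to 0.842) in young mice, and Spry4, a feedback inhibitor, was 0.442-fold (0.254 to 0.749) in aged mice. Among FGF receptors and binding proteins the syndecan Sdc4, a heparan sulphate proteoglycan, was 277.4 CPM in aged CNV and 122.7 CPM in aged control (2.26-fold, 1.997 to 2.56), and 203.2 CPM in young CNV and 96.3 CPM in young control (2.11-fold, 1.79 to 2.49). Fgfr2 was 0.686-fold (0.604 to 0.779) in young mice and Flrt2 was 0.565-fold (0.512 to 0.623) in aged mice. Of this list, 3 of 11 measured in aged and 1 of 8 in young mice had an interval above 1, against the same 20.7% and 10.8% of all genes. At each age 3 had one below, against 17% of all genes in aged and 15% in young mice.

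Ednrb was carried at higher levels by vascular cells than by glia, and its laser ratio was above 1 in pericytes and below 1 in endothelium. In pericyte/smooth-muscle-like cells, the contractile cells of the vessel wall, Ednrb was 330.8 CPM in aged CNV, 106.6 CPM in aged control, 114.2 CPM in young CNV and 43.0 CPM in young control, a fold of 3.10 (2.58 to 3.74) in aged and 2.66 (2.17 to 3.27) in young mice. Aged CNV was highest and young control lowest, and 5.91% of 10488 and 2.63% of 11963 genes were at least 2-fold higher in the aged and young comparison. A cluster led by Abcc9, a pericyte marker, held 33.3% of these cells in aged CNV, 16.4% in aged control, 50.3% in young CNV and 47.7% in young control, and within it Ednrb was 917.3 CPM in aged CNV (65 cells), 524.1 CPM in aged control (35 cells), 198.4 CPM in young CNV (186 cells) and 62.6 CPM in young control (194 cells), so the CNV library was higher there at both ages. In the cluster led by Myh11, of smooth muscle, it was 62.2 CPM in aged CNV, 21.1 CPM in aged control, 35.4 CPM in young CNV and 29.5 CPM in young control. Ednra, the other endothelin receptor, was 642.4 CPM in aged CNV, 556.6 CPM in aged control, 355.9 CPM in young CNV and 351.1 CPM in young control (folds of 1.15, 1.05 to 1.27, and 1.01, 0.930 to 1.10). In endothelial-like cells Ednrb was lower after laser, at 230.7 CPM in aged CNV, 319.8 CPM in aged control, 216.8 CPM in young CNV and 382.4 CPM in young control, a fold of 0.722 (0.655 to 0.795) in aged and 0.567 (0.534 to 0.602) in young mice. In young endothelial-like cells it was lower in young CNV within each of the 3 clusters: 206.0 CPM in young CNV against 265.7 CPM in young control where Gpihbp1 led, 172.8 CPM against 465.5 CPM (29 young control cells) where Igfbp3 led, and 230.7 CPM against 401.7 CPM where Cldn5 led. Melanocyte-like cells, where Ednrb is needed in development, held 1556 CPM in young CNV and 1791 CPM in young control (0.869-fold, 0.813 to 0.928), and Schwann-like cells 94.1 CPM in young CNV and 30 CPM in young control (3.14-fold, 1.74 to 6.22, from 12 UMIs in young control).

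**Figure D5:**
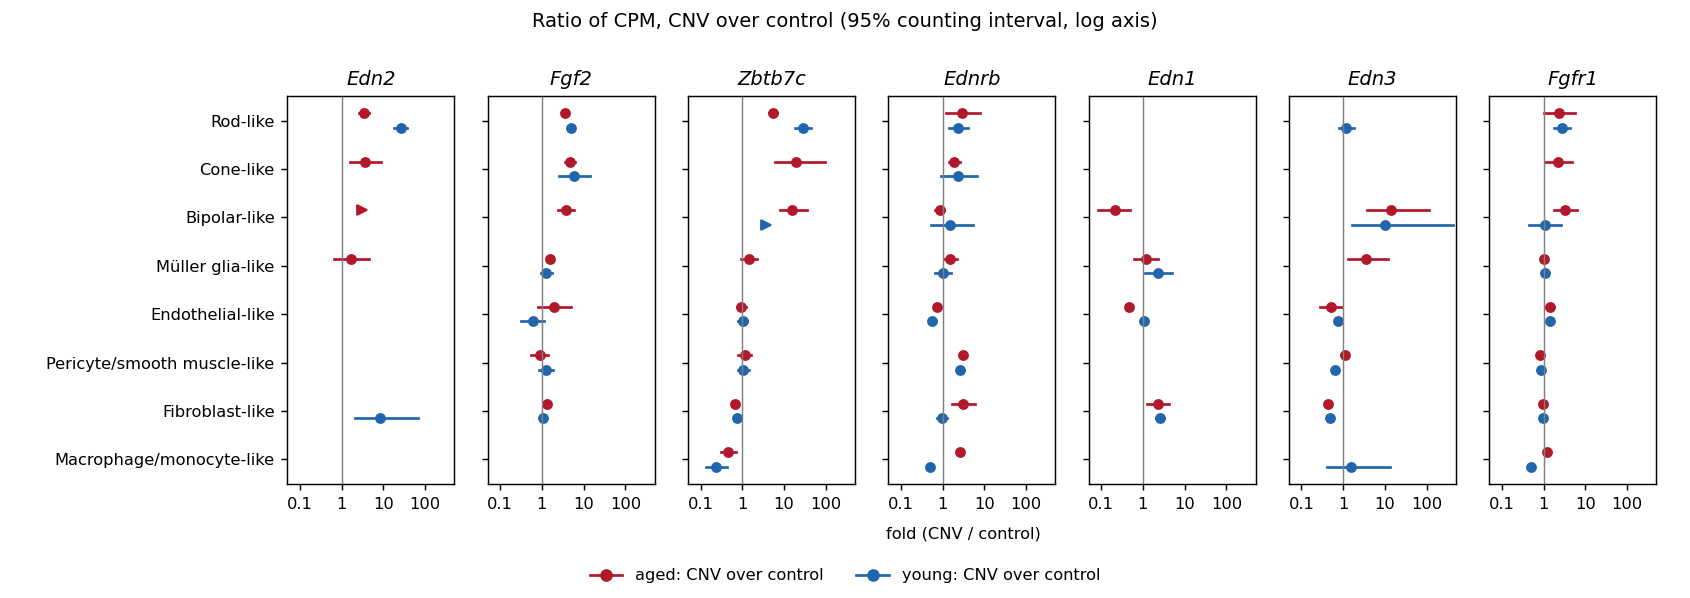
Ratio of CPM, CNV over control, of the 7 genes in 8 classes, on a log axis, in red for aged and blue for young mice, with exact 95% intervals (counting error only) for genes with at least 20 UMIs. Triangles are lower bounds with 3 UMIs set in an empty control library, and bounds under 1 are left out. Rods have Edn2 and Zbtb7c farthest to the right in young mice, and Ednrb is right of 1 in pericyte/smooth-muscle-like cells and left of 1 in endothelial-like cells at both ages.

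Edn1, the endothelin of vessels, came mainly from endothelial-like cells, which held 68.7% to 91.9% of its UMIs in a library. It stood at 133.1 CPM in aged CNV, 281.7 CPM in aged control, 186.1 CPM in young CNV and 170.6 CPM in young control, a fold of 0.472 (0.420 to 0.531) in aged and 1.09 (1.01 to 1.18) in young mice. Aged control was highest. In the endothelial cluster led by Plvap and Cldn5, which held 79.6% of these cells in aged CNV and 94.5% in aged control, it was 136.8 CPM in aged CNV, 289.9 CPM in aged control, 243.1 CPM in young CNV and 200.6 CPM in young control. The young log2 ratio was -0.57 when cells were thinned to 1000 UMIs, so its direction was not stable. Ece1, a converting enzyme, was 443.8 CPM in aged CNV and 516.0 CPM in aged control (0.860-fold, 0.799 to 0.925), and 372.0 CPM in young CNV and 412.6 CPM in young control (0.902-fold, 0.856 to 0.949). Fibroblast-like cells held less Edn1 but more after laser, at 3.44 CPM in aged CNV, 1.53 CPM in aged control, 12.4 CPM in young CNV and 4.96 CPM in young control, a fold of 2.25 (1.27 to 4.16) in aged and 2.50 (2.02 to 3.13) in young mice. Most of it lay in a cluster led by Clec3b and Dpt, whose share of fibroblast-like cells was 35.3% in aged CNV, 12.1% in aged control, 44.7% in young CNV and 21.2% in young control, and within which Edn1 was 9.003 CPM in aged CNV, 10.1 CPM in aged control, 25.9 CPM in young CNV and 19.1 CPM in young control.

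Edn3, best known as the ligand that guides neural crest cells, came mainly from fibroblast-like cells, with 76.9% to 92.9% of its UMIs. It stood at 174.2 CPM in aged CNV, 393.9 CPM in aged control, 260.5 CPM in young CNV and 552.3 CPM in young control, a fold of 0.442 (0.421 to 0.465) in aged and 0.472 (0.460 to 0.484) in young mice, while 2.71% of 15463 and 6.29% of 16928 genes were at least 2-fold lower. The mix of fibroblast clusters differed as well: the cluster with most Edn3, led by Pappa2 and Pgf, held 27.6% of these cells in aged CNV, 49.3% in aged control, 27.9% in young CNV and 51.3% in young control. Within that cluster Edn3 was 605.1 CPM in aged CNV, 737.7 CPM in aged control, 1322 CPM in young CNV and 1225 CPM in young control, so within it Edn3 was lower in aged CNV than in aged control, and not lower in young CNV than in young control. In a cluster led by Myoc and Chil1 it was 99.9 CPM in aged CNV, 214.0 CPM in aged control, 113.5 CPM in young CNV and 236.6 CPM in young control. Pericyte/smooth-muscle-like cells held 143.6 CPM in aged CNV, 133.5 CPM in aged control, 343.0 CPM in young CNV and 537.0 CPM in young control (folds of 1.08, 0.873 to 1.32, and 0.639, 0.590 to 0.691). Aged over young, Edn3 was 0.419-fold (0.353 to 0.494) after laser and 0.249-fold (0.215 to 0.287) without in these cells.

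Macrophage/monocyte-like cells differed between the ages in Ednrb. It was 498.6 CPM in aged CNV, 192.2 CPM in aged control, 231.2 CPM in young CNV and 473.8 CPM in young control, a fold of 2.59 (2.30 to 2.93) in aged and 0.488 (0.442 to 0.540) in young mice. With cells thinned to 1000 UMIs the aged log2 ratio was 0.73 in place of 1.38. The class was made of different clusters in each library. A cluster led by Cxcl13 and Cd209d, with cells enough for a value in aged CNV alone (119 cells, 24.9% of the class), held 1580 CPM. A cluster led by the resident macrophage genes Cd163 and Folr2 held 974.4 CPM in aged CNV (22 cells), 922.3 CPM in young CNV and 792.3 CPM in young control, and made up 4.603% of the class in aged CNV, 26.9% in young CNV and 57.01% in young control. In a cluster led by Fcgr1 and Aif1 Ednrb was 186.7 CPM in aged CNV, 8.26 CPM (1 UMI) in aged control, 99.6 CPM in young CNV and 13.9 CPM (2 UMIs) in young control. The young direction over the whole class was therefore opposite to that within each of the clusters with a young pair.

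Fgfr1 was spread over many classes and differed little in the stroma. Fibroblast-like cells held 66.3% to 74.1% of its UMIs, at 377.5 CPM in aged CNV, 397.3 CPM in aged control, 273.2 CPM in young CNV and 286.2 CPM in young control, with folds of 0.95 (0.913 to 0.989) in aged and 0.954 (0.925 to 0.985) in young mice whose direction depended on scaling or depth (log2 ratios of 0.04 to 0.12 in young mice under 3 other settings). In endothelial-like cells it was 71.96 CPM in aged CNV, 51.5 CPM in aged control, 54.8 CPM in young CNV and 38.9 CPM in young control, a fold of 1.40 (1.13 to 1.73) in aged and 1.41 (1.21 to 1.65) in young mice. Fibroblast-like cells were also the main source of Fgf2 transcripts by number, with 35.7% of its UMIs in aged CNV, 42.2% in aged control, 65.0% in young CNV and 61.7% in young control, while rods held 21.5% in aged CNV, 23.3% in aged control, 22.6% in young CNV and 17.6% in young control. Their Fgf2 level was 74.95 CPM in aged CNV, 55.8 CPM in aged control, 49.2 CPM in young CNV and 46.1 CPM in young control, with a fold of 1.34 (1.22 to 1.49) in aged and 1.07 (0.987 to 1.15) in young mice. The mix of clusters differed as above. In the cluster led by Clec3b and Dpt, whose share was larger in the CNV library of each age, Fgf2 was 109.4 CPM in aged CNV, 107.6 CPM in aged control, 63.7 CPM in young CNV and 68.2 CPM in young control. In that led by Pappa2 and Pgf it was 40.3 CPM in aged CNV, 42.7 CPM in aged control, 28.7 CPM in young CNV and 28.1 CPM in young control. In the cluster led by Myoc and Chil1 it was 62.95 CPM in aged CNV, 51.5 CPM in aged control, 36.9 CPM in young CNV and 48.2 CPM in young control. Over the 5 clusters, aged CNV was above aged control in 3 and young CNV above young control in 1. Of 10 FGF ligands 6 were measured in aged and 8 in young fibroblast-like cells, and 1 in aged and 2 in young mice were at least 2-fold higher, against 6.63% and 4.73% of all genes. The largest was Fgf10, a ligand of mesenchyme, at 28.9 CPM in aged CNV, 12.4 CPM in aged control, 28.3 CPM in young CNV and 8.62 CPM in young control. Fgfr3, a receptor, was 14.6 CPM in aged CNV, 44.1 CPM in aged control, 8.14 CPM in young CNV and 19.2 CPM in young control in these cells.

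In fibroblast-like and macrophage/monocyte-like cells the laser ratios of Zbtb7c were below 1. Fibroblast-like cells held 38.2% to 69.2% of its UMIs. It was 62.1 CPM in aged CNV, 91.2 CPM in aged control, 42.6 CPM in young CNV and 57.1 CPM in young control there, a fold of 0.682 (0.622 to 0.747) in aged and 0.746 (0.694 to 0.803) in young mice. Macrophage/monocyte-like cells held 11.97 CPM in aged CNV, 25.8 CPM in aged control, 4.50 CPM in young CNV and 19.04 CPM in young control. In endothelial-like cells it was 41.4 CPM in aged CNV, 44.0 CPM in aged control, 20.1 CPM in young CNV and 19.7 CPM in young control, with laser folds of 0.941 (0.733 to 1.21) and 1.02 (0.807 to 1.29), and both aged libraries were above both young ones. In aged CNV and young control, Edn2 outside the retina was found mainly in epithelial-like cells. Their level was 15.6 CPM in aged CNV, 3.10 CPM in young CNV and 3.74 CPM in young control. These cells held 35.4% of all Edn2 UMIs in aged CNV, 4.41% in young CNV and 50.6% in young control (in aged control they were under 50), while rods held 40.8% in aged CNV, 78.3% in aged control, 82.2% in young CNV and 42.0% in young control. In young CNV, fibroblast-like cells held 5.78% of the Edn2 UMIs, at a level of 0.806 CPM.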

How the data were processed

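Per the file headers, the authors deposited 1 matrix of raw counts (UMIs per gene and cell). Its column prefixes gave the libraries (0 columns unmapped), with the prefix e read as aged because it was the only other age code. The submitters' processing notes name Cell Ranger, Seurat 4.1.1 and mm10. No source used here gives the Cell Ranger version, annotation or strand setting. The lowest counts were 500 UMIs and 201 genes per cell, the highest mitochondrial share was 20.0%, and a filter at 200 genes and 25% removed 0 cells.

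Scrublet (score 0.2, per library) removed 1100 predicted doublets. The other 35601 cells were clustered jointly, without integration, in scanpy 1.11.5 and leidenalg 0.10.2 (2000 variable genes without 88 list genes, 40 principal components, 20 neighbours, pruning 0.0667, resolution 1.0). Leukocyte clusters, those with Ptprc in 30% or more of their cells, were split again, for 62 clusters in all. Names needed 3 markers of 20 CPM or more. After the clusters were seen, 2 of them were left unnamed because their leading genes went against their name. Unnamed clusters held 2.83% to 4.91% of cells.

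UMIs were summed per class and library for classes of 50 cells or more. Levels have exact Poisson, ratios exact conditional binomial and shares Clopper-Pearson 95% intervals, for counting error only. Only the ratio intervals, in rods, were tried on simulated data, with Poisson counts that follow the model these intervals assume. Ratios needed 20 UMIs over both libraries, and a library with 0 UMIs was set to 3 counts. With 1 library per group no test was possible. The 7 genes, the lists and the rules were chosen with earlier results of these data known. The rule named up to 4 genes per list, class and comparison by size among those whose interval left out 1, the 5 genes most like Edn2, Fgf2 and Zbtb7c, and 10 leading genes per direction in rods. Other list members given with values (Ednra, Ece1, Fgfr2, Fgfr3, Fos in young rods, Nudt6 and Gnat1 among them) were chosen after their values were seen. Alternatives were TMM scaling (edgeR 4.0.16, R 4.3.3), median-of-ratios scaling, thinning, doublets kept, other clusterings, cells picked by their own markers and, added after the data were seen, subsets of rod clusters and an estimate of free rod RNA from Gnat1. Some results that rest on single genes are not reported here.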

Additional observations from a re-analysis of the deposited data

Results flagged for a closer look

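Ednrb in macrophage/monocyte-like cells was flagged because the laser ratios of the 2 ages went opposite ways, with a log2 ratio of 1.38 in aged and -1.03 in young mice. Fgfr1 in the same class had 0.30 in aged and -0.96 in young mice. Edn1 in endothelial-like cells had -1.08 in aged and 0.12 in young mice. The differences between the ages were not tested, since each ratio rests on 2 libraries. The clusters that made up the macrophage/monocyte-like class differed between the libraries, as given above.

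Edn2 also appeared in cells outside the named classes. Predicted doublets, which were left out, held 9.81 CPM in aged CNV, against 1.21 CPM in aged control, and 13.01 CPM in young CNV, against 2.48 CPM in young control. Cells of unnamed clusters held 2.20 CPM in young CNV (8 UMIs), against 0 UMIs in young control.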

How the results depend on the processing

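No paired analysis was possible because each group is 1 library, and for the same reason no replicate could be left out. All values here are log2 ratios unless given as shares, and the cause of each shift was not tested. In rods, Zbtb7c had 2.45 for aged CNV over aged control, 4.82 for young CNV over young control, 3.57 for aged over young control and 1.20 for aged over young CNV. These became 2.05, 2.95, 1.82 and 0.93 with rods picked by their own markers, and after thinning that for aged CNV over aged control was 2.90 and that for aged over young control 2.67. No scaling, doublet or clustering alternative moved the rod ratios of Edn2, Fgf2 or Zbtb7c beyond their intervals.

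The make-up of the rods mattered more. For aged CNV over aged control, Edn2 (1.78), Fgf2 (1.85) and Zbtb7c were 2.89, 2.69 and 4.16 without the Dpp10-led cluster and 2.83, 2.96 and 3.99 in the Rp1-led cluster alone, and Fgf2 was 1.56 without the Rp1-led one. For young CNV over young control, Fgf2 (2.29) was 2.68 in the Rp1-led cluster alone, 1.93 without it and 2.56 without the Pdc-led one, and Zbtb7c was 5.51 in the Rp1-led cluster alone and 4.11 without it. For aged over young control, Edn2 (2.65), Fgf2 (1.61) and Zbtb7c were 1.60, 0.84 and 1.72 without the Dpp10-led cluster, Edn2 and Fgf2 were 1.39 and 0.41 in the Rp1-led one, and Fgf2 was 1.99 without it. For aged over young CNV, Edn2 (-0.26), Fgf2 (1.17) and Zbtb7c were -0.84, 0.69 and 0.23 in the Rp1-led cluster alone and 0.27, 1.62 and 2.07 without it, a reversal for Edn2. Without the Pdc-led cluster Fgf2 and Zbtb7c were 0.78 and 0.86, and without the Dpp10-led one Zbtb7c was 0.82.

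The share of rods with Edn2 was 2.92% in aged CNV, 0.904% in aged control, 3.34% in young CNV and 0.171% in young control at 500 UMIs, and 12.4% in aged CNV, 3.59% in aged control, 14.6% in young CNV and 0.851% in young control at 2000 UMIs, with young CNV above aged CNV at both. Without thinning it was 16.3% in aged CNV, 5.75% in aged control and 12.6% in young CNV. With 2 UMIs required it was 0.87% in aged CNV, 0.172% in aged control, 1.10% in young CNV and 0.0236% in young control.

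Other ratios changed sign. With doublets kept, Edn3 in bipolar-like cells was -0.60 in aged and -1.68 in young mice, and Fgfr1 there was 0.35 for aged over young CNV; at clustering resolution 2.0 young Edn3 was -1.25. After thinning, Fgf2 in bipolar-like cells was -0.40 for aged over young CNV, Edn1 in young endothelial-like cells -0.57, and Fgfr1 0.05 in aged and 0.12 in young fibroblast-like and 0.05 in aged pericyte/smooth-muscle-like cells. Fgfr1 in young fibroblast-like cells was 0.04 with TMM and 0.05 with median-of-ratios scaling, and -0.02 with both in macrophage/monocyte-like cells for aged over young CNV. With cells picked by their own markers, Edn3 in aged Müller-glia-like cells was -0.86, Fgfr1 in rods -0.72 at both ages and Ednrb in young rods -0.39.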
